A study of Mus musculus with 23 samples.

Results

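Gene expression in the small intestine was compared between mice that received fecal microbiota transplantation (FMT) from donors dosed with 100 mg/kg alginate oligosaccharides (A100-FMT) and mice that received FMT from donors dosed with 10 mg/kg (A10-FMT). Alginate oligosaccharides (AOS) are short sugar chains cut from alginate, a polysaccharide of brown seaweed. The members are the 3 A100-FMT and the 3 A10-FMT libraries whose labels carry the second of the series' set codes, here called set 2, which is 6 of the 23 libraries of the series. The labels do not say what distinguishes set 2 from set 1.

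Every mouse of the series was an ICR mouse, male according to the methods, and every group, controls included, had been given a single injection of 40 mg/kg busulfan, an alkylating anticancer drug that damages dividing cells of the crypts and the testis. Treatment began on the day after busulfan. The A10-FMT and A100-FMT mice were gavaged daily with luminal contents of the small intestine taken from their donor group, pooled and kept frozen in glycerol, so the 3 mice of a group received the same kind of pooled material. The other groups of set 2 are Con-FMT, with contents from donors given the vehicle, and Sa, given saline without microbes, each with 3 libraries. The methods give 1 schedule for the transplantation, with busulfan at 3 weeks of age, daily gavage over 1 week and sampling after 1 more week, at 5 weeks of age, but no label ties set 2 to this schedule. No label ties replicates to separate cages or litters, so p-values measure the spread between these libraries only.

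The small intestinal epithelium renews from stem cells at the crypt base, where Paneth cells keep granules of antimicrobial peptides and release them into the lumen. Absorptive enterocytes leave the crypt, climb the villus and build a brush border with digestive enzymes, nutrient transporters, lipid-handling proteins and enzymes that detoxify drugs and dietary compounds. Microbes in the lumen are known to act on the defence genes and on the metabolic genes of these cells.

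Expression was deposited as FPKM, fragment counts scaled to transcript length and library size, in 1 table of genes. Differences are of log2(FPKM + 1), A100-FMT minus A10-FMT, which understates the change of genes with low values. The test covered the 11351 genes whose mean in set 2 (12 libraries) reached 1 FPKM. A gene is said not to overlap where each of the 3 libraries of a group lay beyond each of the 3 of the other, and an exact permutation test of 3 against 3 cannot go below p = 0.1.

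2 genes passed the test across all genes at an adjusted p below 0.05 (limma, two-sided), 1 in each direction, which is 0.0176% of the genes tested (0.00881% each way). Without the adjustment 775 genes (6.83%) were higher and 553 (4.87%) were lower at p below 0.05. By position alone, 1080 genes were higher in A100-FMT without overlap (9.51% of the genes tested) and 815 were lower (7.18%). A ratio of group means of at least 1.5 with no overlap was reached by 74 genes upward (0.652%) and by 36 downward (0.317%). The median difference over all genes tested was 0.003, with 5798 genes above 0 and 5549 below.

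The gene that fell was Pla2g2f, a secreted phospholipase A2 (group IIF). It measured 6.67, 6.04 and 5.86 FPKM in the A10-FMT libraries and 4.04, 3.63 and 3.76 FPKM in the A100-FMT libraries. The groups stood well apart, and the Con-FMT libraries (5.29 to 6.21 FPKM) lay near A10-FMT while the Sa libraries (4.01 to 4.23 FPKM) lay near A100-FMT. The log2 difference was -0.58 (SE 0.07, adjusted p = 0.0229 from limma). It lost its call without each of the 6 libraries in turn, whereas its difference stayed between -0.61 and -0.53. In the A10-FMT and A100-FMT libraries of set 1, none of which is in set 2, Pla2g2f differed by -0.82.

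The entry that rose, BGI_novel_G001431, is a transcript model of the sequencing provider without a gene symbol, so nothing can be said of its function. Its values were 4.84, 3.97 and 3.84 FPKM in A10-FMT and 14.2, 11.7 and 12.7 FPKM in A100-FMT, a log2 difference of 1.41 (SE 0.14, adjusted p = 0.0142 from limma). Con-FMT libraries held 9.10 to 10.2 FPKM and Sa libraries 2.28 to 4.19 FPKM. Its call was lost without A10-FMT replicate 2, A10-FMT replicate 3, A100-FMT replicate 1 or A100-FMT replicate 3. In set 1 the same entry was lower in A100-FMT, with a difference of -0.95.

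All other genes below are therefore given as values in libraries that did or did not overlap, and none of them passed the test in set 2. The lists to which they are assigned were described by counts of members and by the median difference, beside the same counts over all genes.

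Most Paneth cell genes had lower values in A100-FMT than in A10-FMT. Of 37 genes on the list of Paneth cell defensins and secreted antimicrobials 32 were tested, and 29 of these were below 0 and 3 above. Without overlap, 10 were lower (31.2%, against 7.18% of all genes) and 1 was higher, and the median difference was -0.69. That median lay between -0.907 and -0.445 when 1 of the 6 libraries was left out, the latter without A10-FMT replicate 1. The mean level of the whole list overlapped between the groups, at 1.324, 0.544 and -0.473 in A10-FMT and -0.66, 0.401 and -0.466 in A100-FMT on the log2 scale, relative to the mean over 12 libraries. Pla2g2f is a member of this list. In bulk tissue, fewer Paneth cells and less RNA per Paneth cell cannot be told apart.

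Ang4, a ribonuclease with bactericidal activity stored in Paneth granules, differed most among the well-measured members. It stood at 1362, 1355 and 834 FPKM in A10-FMT and at 550, 370 and 469 FPKM in A100-FMT. Each A10-FMT library lay above each A100-FMT library, above Con-FMT (677 to 743 FPKM) and above Sa (305 to 560 FPKM). The log2 difference was -1.34 (SE 0.24, adjusted p = 0.175 from limma).

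Mmp7, the protease that cuts pro-defensins into active peptides, held 181, 182 and 143 FPKM in A10-FMT and 119, 70.2 and 63.9 FPKM in A100-FMT, again without overlap. Itln1, intelectin, a lectin that binds microbial sugars, held 1178, 1117 and 822 FPKM against 761, 644 and 676 FPKM. For both genes the third A10-FMT library was the lowest of its group, as it was for Ang4. Habp2, a serine protease of the list, held 14.6, 14.3 and 10.3 FPKM against 9.16, 5.99 and 6.03 FPKM. The log2 differences were -1.04 (SE 0.29) for Mmp7, -0.57 (SE 0.17) for Itln1 and -0.81 (SE 0.18) for Habp2.

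Lyz1, the lysozyme that defines Paneth cells, overlapped between the groups because the lowest A10-FMT library and the highest A100-FMT library crossed. Its values were 4001, 4000 and 2422 FPKM in A10-FMT and 2556, 1702 and 1433 FPKM in A100-FMT. Mptx2, a mucosal pentraxin also found in Paneth cells, held 406, 592 and 486 FPKM against 378, 274 and 122 FPKM without overlap.

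The alpha-defensins (Defa genes), which are the main antimicrobial peptides of Paneth granules, pointed one way. With all 6 libraries in the comparison, the 19 tested Defa genes were below 0, with a median difference of -0.74, and 4 did not overlap. The 13 other members of the list had a median of -0.57, with 10 below 0 and 6 lower without overlap. Of all genes 7.18% were lower without overlap. Defa24 held 6601, 6710 and 4865 FPKM in A10-FMT and 4588, 3976 and 3996 FPKM in A100-FMT, without overlap and with a difference of -0.52 (SE 0.15). Defa17 held 3906, 3958 and 2949 FPKM against 2882, 2528 and 2638 FPKM, also without overlap. Defa31, the most abundant member, held 5304, 10346 and 7789 FPKM against 7289, 4286 and 6495 FPKM and overlapped.

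Defa genes are near-identical copies in 1 cluster, and how reads were split among them is not given in the sources used here, so each single value is uncertain. Some members varied more within a group than between groups. Defa21 held 1722, 116 and 1.11 FPKM in A10-FMT and 0.67, 558 and 16.6 FPKM in A100-FMT. Defa2, Defa20, Defa22 and Defa32 were highest in the same A10-FMT library, replicate 1, and in the same A100-FMT library, replicate 2. Without A10-FMT replicate 1 the differences of Defa2, Defa20, Defa21, Defa22, Defa23 and Defa34 change sign, so the count of 19 below 0 depends on that library.

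**Figure D1:**
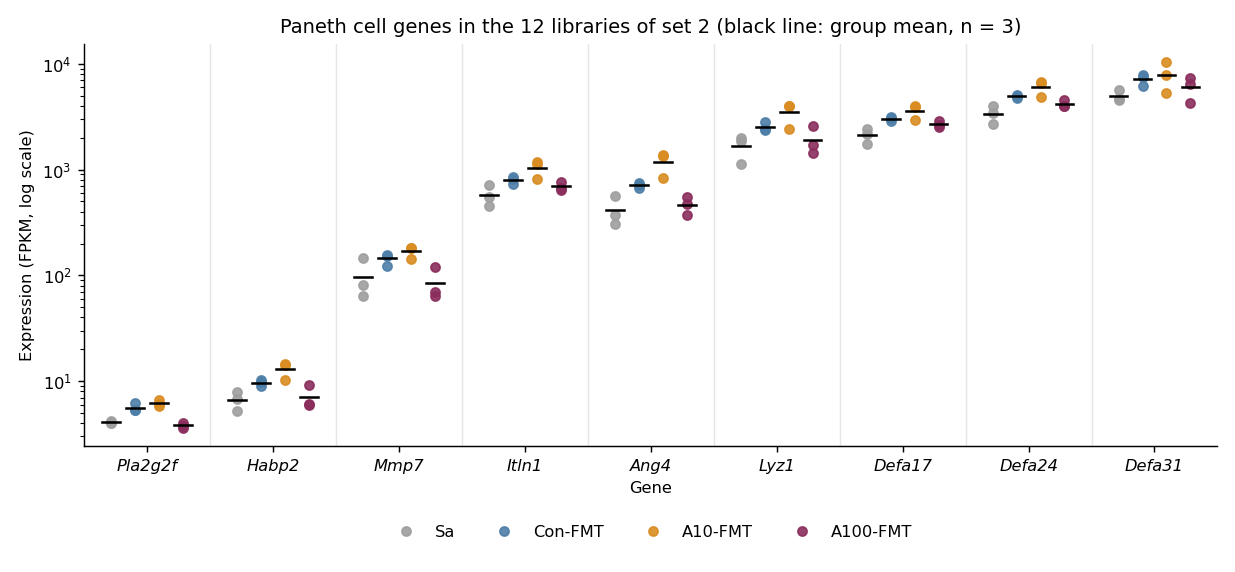
Expression (FPKM, logarithmic axis) of 9 Paneth cell genes in the 12 libraries of set 2, with a point for each library and a black line at each group mean (n = 3). A10-FMT is the highest group for each gene shown, and its libraries lie wholly above A100-FMT for Pla2g2f, Habp2, Mmp7, Itln1, Ang4, Defa17 and Defa24 but not for Lyz1 and Defa31.

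Promoters of Paneth genes are shown because the crypt base is a site of Wnt signalling. Its transcription factors of the TCF/LEF family recognise CTTTGA on either strand (TCAAAG on the other). Whether Wnt signalling has a part in the differences was not tested. The windows are from RefSeq on GRCm38.p6, and the 250 bases before each start were searched and are printed. Capitals mark the letters CTTTGA or TCAAAG.
Defa31, chr8:21191323-21191572, plus strand: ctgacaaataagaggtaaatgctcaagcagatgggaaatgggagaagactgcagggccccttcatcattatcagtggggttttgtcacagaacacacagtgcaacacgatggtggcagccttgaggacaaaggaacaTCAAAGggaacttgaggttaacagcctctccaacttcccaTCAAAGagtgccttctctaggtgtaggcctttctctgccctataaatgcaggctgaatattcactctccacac
Defa35, chr8:21064788-21065037, plus strand: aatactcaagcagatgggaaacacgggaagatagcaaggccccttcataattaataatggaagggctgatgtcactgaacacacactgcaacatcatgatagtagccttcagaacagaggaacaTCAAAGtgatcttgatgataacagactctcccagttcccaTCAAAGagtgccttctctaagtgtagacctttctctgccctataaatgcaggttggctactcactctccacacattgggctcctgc
Ang4, chr14:51773591-51773840, minus strand: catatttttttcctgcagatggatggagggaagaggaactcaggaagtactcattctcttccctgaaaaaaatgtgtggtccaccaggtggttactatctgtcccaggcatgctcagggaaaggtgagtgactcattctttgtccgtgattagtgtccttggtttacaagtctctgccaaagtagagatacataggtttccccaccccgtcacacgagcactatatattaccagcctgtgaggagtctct
Pla2g2f, chr4:138757599-138757848, minus strand: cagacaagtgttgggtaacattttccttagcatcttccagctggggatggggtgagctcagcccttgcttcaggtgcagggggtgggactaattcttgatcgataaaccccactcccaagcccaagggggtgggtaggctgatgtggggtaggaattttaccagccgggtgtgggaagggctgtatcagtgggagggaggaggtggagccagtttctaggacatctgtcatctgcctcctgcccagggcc

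Defa31 and Defa35 each held 2 matches, 113 and 73 bases before the start in Defa31 and 126 and 86 bases before it in Defa35. The matches lay 40 bases apart in both. Defa35 held 567, 1229 and 732 FPKM in A10-FMT and 705, 417 and 544 FPKM in A100-FMT, and like Defa31 it overlapped. With the first match lined up, 166 of 237 bases were the same (70.0%). The windows of Ang4 and Pla2g2f held none, which says only that these letters are not in these windows. Over the Paneth list, 21 of 32 tested genes had a promoter window, and 12 of their 23 windows held a match (52.2%, against 13.8% of 32841 windows of all genes). The matches sat mainly in Defa genes, with 9 of 11 windows, against 3 of 12 windows of the other members, and the Defa windows are related copies.

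1 member of the same list differed the other way without overlap. Guca2b, uroguanylin, a peptide that acts on guanylate cyclase C to drive salt and water secretion, held 247, 206 and 237 FPKM in A10-FMT and 345, 438 and 379 FPKM in A100-FMT. Its log2 difference was 0.75 (SE 0.18), and the A10-FMT libraries lay below the Con-FMT libraries (314 to 429 FPKM) and the Sa libraries (275 to 459 FPKM) as well.

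Most genes of dietary fat uptake had higher values in A100-FMT. Of 28 tested members 23 were above 0, and 11 were higher without overlap (39.3%, against 9.51% of all genes) while none was lower without overlap. The median difference was small, 0.09, because many members lay near 0. Fabp2, the intestinal fatty acid carrier inside the enterocyte, held 979, 809 and 835 FPKM in A10-FMT and 1289, 1384 and 1594 FPKM in A100-FMT. Both controls were in the range of A100-FMT or higher, with 1321 to 1647 FPKM in Con-FMT and 1337 to 1753 FPKM in Sa. The log2 difference of Fabp2 was 0.70 (SE 0.13, adjusted p = 0.175 from limma).

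Of the apolipoproteins of chylomicrons Apoa4, Apoa1 and Apoc3 had the same order. Apoa4 held 724, 405 and 547 FPKM in A10-FMT and 921, 993 and 1129 FPKM in A100-FMT. Apoa1 held 1780, 1030 and 1421 FPKM against 2073, 2824 and 2532 FPKM. Apoc3, an inhibitor of lipoprotein lipase, held 125, 83.7 and 103 FPKM against 174, 199 and 210 FPKM. In each of these the second A10-FMT library was the lowest of all 6. The log2 differences were 0.90 (SE 0.19) for Apoa4, 0.84 (SE 0.20) for Apoa1 and 0.91 (SE 0.18) for Apoc3. Apob, the structural apolipoprotein of the chylomicron, overlapped with 96.8, 84.7 and 93.6 FPKM against 92.8, 85.6 and 79.1 FPKM, a difference of -0.10. Apoc2, a cofactor of lipoprotein lipase, also overlapped, with 303, 163 and 168 FPKM against 296, 322 and 299 FPKM.

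Fabp1, the second abundant fatty acid carrier, held 929, 632 and 827 FPKM against 982, 1127 and 1062 FPKM, without overlap. Dgat2, an enzyme of the last step of triglyceride synthesis, held 54.1, 47.0 and 52.4 FPKM against 65.5, 66.2 and 70.5 FPKM, without overlap. The Fabp2 promoter is shown because Fabp2 is an abundant member without overlap, with the only match in capitals, 133 bases before the start.
Fabp2, chr3:122894822-122895071, plus strand: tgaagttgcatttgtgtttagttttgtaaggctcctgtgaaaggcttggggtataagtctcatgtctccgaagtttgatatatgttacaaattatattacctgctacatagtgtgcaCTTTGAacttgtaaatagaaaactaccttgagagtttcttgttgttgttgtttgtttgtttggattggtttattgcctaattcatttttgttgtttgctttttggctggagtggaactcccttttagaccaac
Over the windows of the fat uptake list 16.7% held CTTTGA, near the 13.8% of all windows, and none held CAAAGTCCA, a site of the enterocyte factor HNF4.

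Brush border enzymes leaned the same way. Of 19 tested disaccharidases and peptidases 14 were above 0, with 6 higher and 2 lower without overlap (31.6% and 10.5%) and a median of 0.22. Ggt1, gamma-glutamyltransferase, which breaks down glutathione at the cell surface, held 121, 94.2 and 111 FPKM in A10-FMT and 136, 156 and 156 FPKM in A100-FMT. Anpep, aminopeptidase N, overlapped between the groups, with 1263, 1089 and 1108 FPKM against 1332, 1334 and 1246 FPKM.

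Of 19 amino acid and peptide transporters 5 were higher without overlap (26.3%) and none lower. Slc6a19, the main carrier of neutral amino acids, held 34.3, 40.8 and 38.0 FPKM in A10-FMT and 51.5, 48.3 and 53.6 FPKM in A100-FMT, and both groups lay below Con-FMT (60.9 to 84.8 FPKM) and Sa (64.4 to 72.2 FPKM). Slc13a2, a carrier of citrate and other dicarboxylates from the list of epithelial ion transporters, held 15.8, 16.9 and 19.4 FPKM against 28.3, 37.7 and 36.2 FPKM, with a log2 difference of 0.93 (SE 0.13, adjusted p = 0.123 from limma). For sugar transport and fructose metabolism, 15 of 17 members were above 0 but only 2 did not overlap, a share of 11.8% that is near that of all genes. Among 27 microvillus structure genes 7 were higher and 2 lower without overlap (25.9% and 7.4%). Vil1, villin, the actin bundler of microvilli, overlapped between the groups with a difference of -0.03 (SE 0.05).

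Cytochrome P450 genes were the list with the largest share of members without overlap in the plot of lists with 13 or more tested members. Of 50 genes on the list of families 1 to 4, 20 were tested, 19 were above 0 and 13 were higher without overlap (65.0%), and none was lower without overlap. The median difference was 0.37. Cyp3a11, the mouse counterpart of the human drug-metabolising CYP3A4, held 7.04, 4.62 and 6.27 FPKM in A10-FMT and 28.5, 13.8 and 27.4 FPKM in A100-FMT. Its log2 difference of 1.75 (SE 0.35, adjusted p = 0.175 from limma) was the largest upward difference among genes with a symbol and no overlap. The Con-FMT libraries (13.4 to 27.2 FPKM) and the Sa libraries (13.1 to 29.4 FPKM) all lay above A10-FMT and close to the range of A100-FMT.

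Cyp2b10, a target of the xenobiotic receptor CAR, held 6.61, 4.54 and 6.80 FPKM against 15.9, 13.2 and 13.6 FPKM. Cyp1a1, the main target of the aryl hydrocarbon receptor, held 4.22, 2.23 and 3.36 FPKM against 6.72, 5.81 and 11.9 FPKM. Cyp2c66, a member of the arachidonic acid metabolising Cyp2c family, held 0.70, 0.70 and 1.35 FPKM against 2.93, 1.93 and 2.38 FPKM. None of these overlapped. For Cyp1a1 the controls held 3.88 to 4.59 FPKM in Sa and 7.79 to 20.9 FPKM in Con-FMT. The log2 differences were 1.14 (SE 0.26) for Cyp2b10, 1.07 (SE 0.34) for Cyp1a1 and 0.84 (SE 0.16) for Cyp2c66. Cyp4f14, the most abundant member, which inactivates leukotrienes, held 190, 151 and 207 FPKM against 209, 246 and 234 FPKM.

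The promoter of Cyp3a11 is shown because the member with the largest difference held both a TCF/LEF match, TCAAAG, 169 bases before the start, and an HNF4 match, CAAAGTCCA (TGGACTTTG on the other strand), 109 bases before it. Capitals mark these, and the 2 do not overlap.
Cyp3a11, chr5:145879855-145880104, minus strand: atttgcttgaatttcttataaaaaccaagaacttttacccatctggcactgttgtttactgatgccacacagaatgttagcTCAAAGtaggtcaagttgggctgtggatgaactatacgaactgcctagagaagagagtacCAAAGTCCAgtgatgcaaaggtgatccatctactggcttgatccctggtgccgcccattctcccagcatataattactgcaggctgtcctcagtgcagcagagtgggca
The HNF4 letters stood in 3 of 23 P450 windows (against 0.384% of all windows), and those of TCF/LEF in 5 of 23 (21.7%). These windows belong to 18 genes of related families, so they are not independent. Of the brush border windows 1 of 22 held the HNF4 letters (4.55%). The letters AGATAAG, a site of Gata factors, or CTTATCT for the other strand, stood in 3 of 23 P450 windows, against 2.74% of all windows.

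Conjugating and hydrolysing enzymes followed the same order. Of 26 tested glucuronidation, sulfation and carboxylesterase genes 23 were above 0 and 11 were higher without overlap (42.3%), and none was lower without overlap. Ces2c, a carboxylesterase that hydrolyses esters in enterocytes, held 149, 137 and 157 FPKM in A10-FMT and 182, 187 and 176 FPKM in A100-FMT. Ces2a, its relative, held 14.9, 21.1 and 19.6 FPKM against 30.4, 29.4 and 59.3 FPKM, and the third A100-FMT library was the highest. Carboxylesterases of this cluster are close copies, so their separate values are uncertain.

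Of 34 genes of glutathione metabolism 10 were higher and 1 was lower without overlap (29.4% and 2.9%), with a median of 0.10. Gstp1, a glutathione transferase, held 911, 1007 and 887 FPKM against 1118, 1062 and 1234 FPKM. Peroxisomal and mitochondrial fatty acid oxidation had 7 of 27 members higher without overlap (25.9%), none lower, and a median of 0.11.

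**Figure D2:**
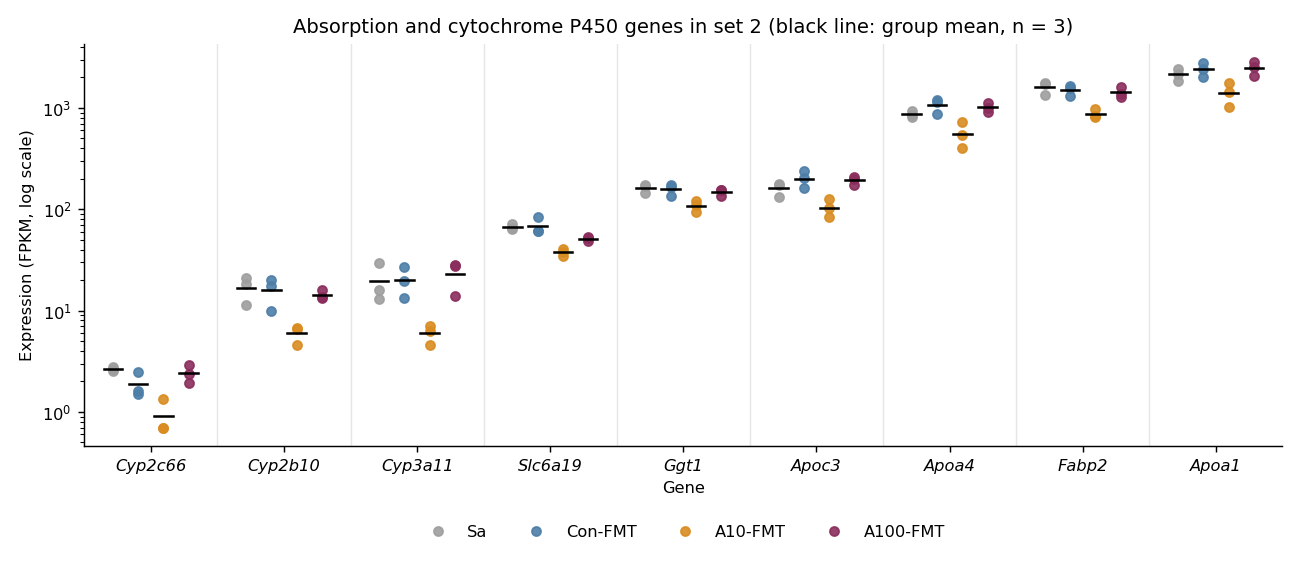
Expression (FPKM, logarithmic axis) of 9 genes of absorption and drug metabolism in the 12 libraries of set 2, with a point for each library and a black line at each group mean (n = 3). For each gene shown the 3 A10-FMT libraries lie below the 3 A100-FMT libraries, and the A10-FMT mean is the lowest of the 4 groups.

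**Figure D3:**
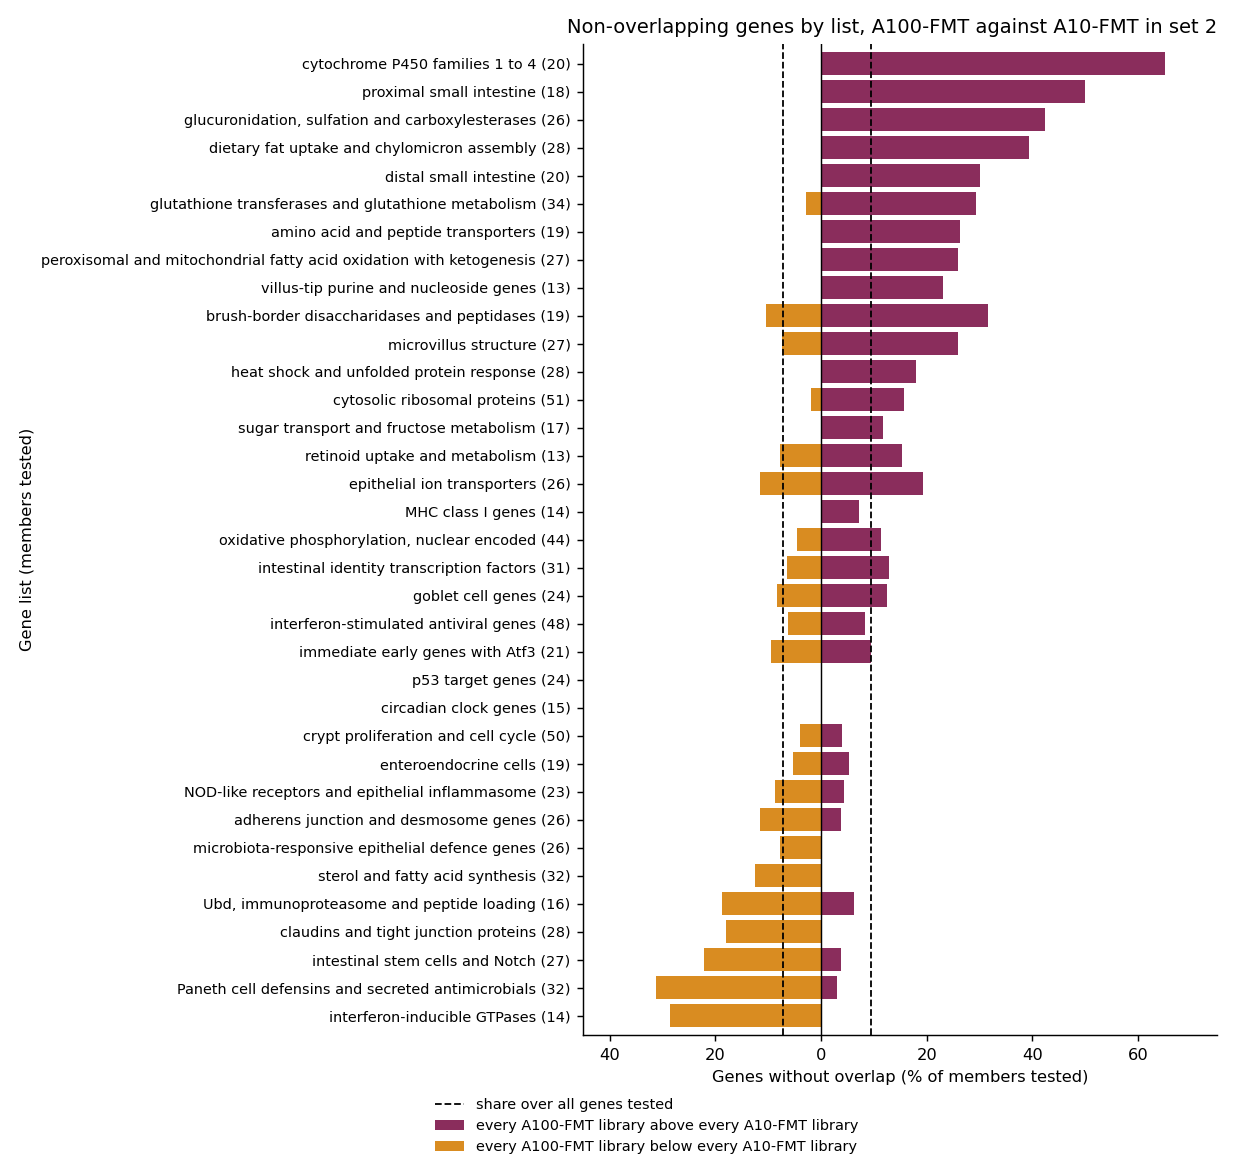
Share of tested members of each gene list (lists with 13 or more tested members, number in parentheses) whose A100-FMT libraries lay wholly above (right) or wholly below (left) the A10-FMT libraries of set 2. Dashed lines mark the shares over all 11351 genes, 9.51% higher and 7.18% lower. P450 genes reach 65.0% to the right and Paneth genes 31.2% to the left.

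Most markers of proximal and of distal small intestine had higher values in A100-FMT. Of 18 proximal markers 14 were above 0 and 9 were higher without overlap (50%), with a median of 0.37. Of 20 distal markers 18 were above 0 and 6 were higher without overlap (30%), with a median of 0.25 (0.163 without A100-FMT replicate 2). The lists share genes with the absorption lists. Rbp2, the retinol carrier of proximal enterocytes, held 1620, 992 and 1095 FPKM in A10-FMT and 1520, 1458 and 1738 FPKM in A100-FMT, and overlapped. Fabp6, the ileal bile acid carrier, held 389, 529 and 750 FPKM against 786, 1189 and 677 FPKM, and overlapped. Slc10a2, the ileal bile acid transporter, held 2.0, 4.95 and 5.97 FPKM against 6.39, 10.6 and 6.39 FPKM, without overlap. The part that the sampled position along the intestine has in the results above was not tested.

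**Figure D4:**
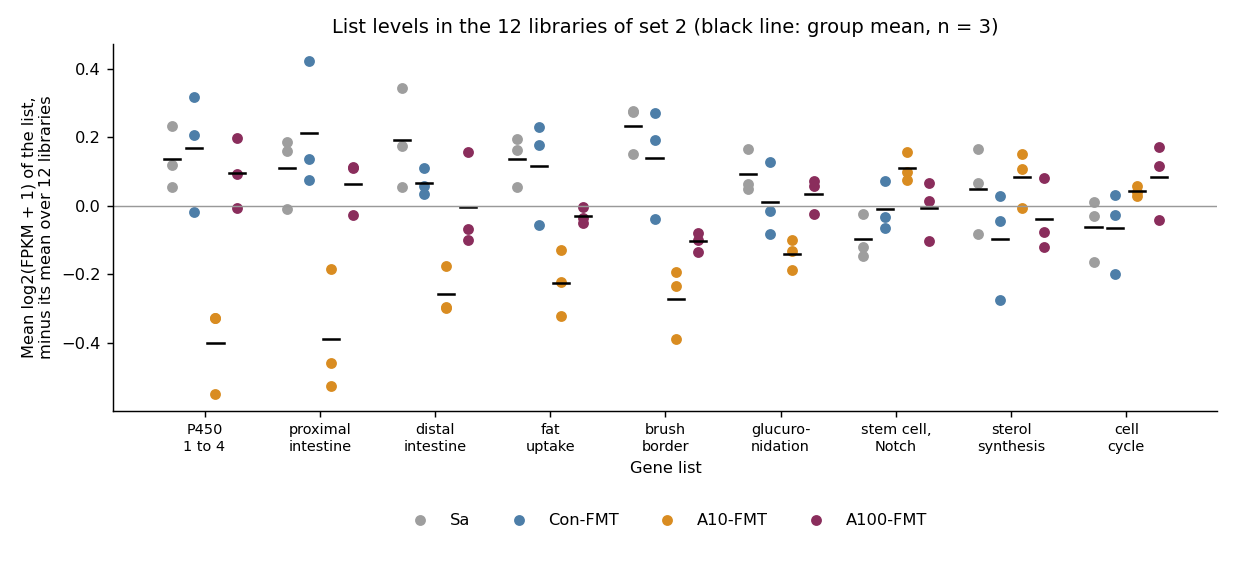
Mean log2(FPKM + 1) of the tested members of 9 gene lists in each of the 12 libraries of set 2, given as the distance from the list's own mean over the 12 libraries, with black lines at group means (n = 3). The A10-FMT libraries are the lowest group for P450, proximal, distal, fat uptake, brush border and glucuronidation genes. By group means A100-FMT sits between A10-FMT and the controls for fat uptake and brush border genes. For fat uptake 1 Con-FMT library, replicate 1 at -0.057, lies below the A100-FMT libraries.

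The averaged levels of these lists place the 2 FMT groups beside the controls. For P450 genes the list mean lay at -0.326, -0.549 and -0.326 in A10-FMT, relative to the mean over 12 libraries. In A100-FMT it lay at 0.094, -0.005 and 0.198, within the range of the controls, which ran from -0.019 to 0.318. For brush border genes A100-FMT lay at -0.098, -0.078 and -0.133, above A10-FMT (-0.389 to -0.193) and below all 6 control libraries (-0.039 to 0.278). The placements against the controls share the A10-FMT and A100-FMT libraries with the comparison above and are given as values only.

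Crypt genes showed smaller differences. Of 27 tested stem cell and Notch genes 22 were below 0, 6 were lower and 1 was higher without overlap (22.2% and 3.70%), and the median was -0.11. Lrig1, a negative regulator of ErbB receptors that marks stem cells, held 23.99, 24.3 and 24.2 FPKM in A10-FMT and 21.2, 18.8 and 18.2 FPKM in A100-FMT, with a log2 difference of -0.31 (SE 0.06). Olfm4, an abundant stem cell marker, held 515, 512 and 456 FPKM against 488, 430 and 375 FPKM, and overlapped. Hes1, the transcriptional effector of Notch, was the member that was higher without overlap, with 38.5, 40.2 and 37.5 FPKM against 45.8, 47.9 and 45.5 FPKM.

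Proliferation genes were balanced, with 21 of 50 above 0, 2 higher and 2 lower without overlap and a median of -0.01. Of 32 sterol and fatty acid synthesis genes 29 were below 0, but only 4 were lower without overlap (12.5%), with a median of -0.14 (-0.08 without A100-FMT replicate 2). Among these, Elovl6, which lengthens fatty acids, held 42.0, 48.6 and 44.0 FPKM against 40.8, 34.0 and 36.1 FPKM.

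Genes of antigen presentation on MHC class II were lower in A100-FMT for 6 of 8 tested members, 3 of them without overlap (37.5%, against 7.18% of all genes). Their median of -0.19 was -0.417 without A10-FMT replicate 1 and -0.062 without A10-FMT replicate 2. Ciita, the regulator that switches on class II genes, held 4.41, 5.48 and 5.86 FPKM in A10-FMT and 3.84, 3.51 and 3.57 FPKM in A100-FMT. H2-DMb1, which loads peptides, held 15.4, 11.9 and 4.31 FPKM against 1.09, 1.03 and 0.85 FPKM. H2-Ea, a class II chain, held 47.0, 52.7 and 13.3 FPKM against 10.1, 0.95 and 2.73 FPKM. H2-Ea ranged from 2.95 to 81.6 FPKM within Con-FMT and from 0.76 to 74.0 FPKM within Sa, wider than the gap between the 2 groups compared. H2-DMb1 and H2-Ea lie within the same 0.522 Mb of chromosome 17. Cd74, H2-Aa and H2-Ab1, the abundant class II genes, overlapped.

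Of 14 interferon-inducible GTPases 11 were below 0 and 4 were lower without overlap (28.6%), and none was higher without overlap. Their median of -0.10 was -0.013 without A100-FMT replicate 2. Igtp held 36.4, 32.3 and 33.2 FPKM in A10-FMT and 26.4, 21.7 and 25.2 FPKM in A100-FMT, a log2 difference of -0.46 (SE 0.14). Irgm1, which acts in the clearance of intracellular bacteria, held 113, 105 and 104 FPKM against 91.2, 94.2 and 100.2 FPKM. Of the interferon-stimulated antiviral genes 4 of 48 were higher and 3 lower without overlap (8.3% and 6.2%). These shares are near those of all genes, 9.51% and 7.18%. Among microbiota-responsive defence genes Reg3g and Reg3b, C-type lectins directed at bacteria, overlapped between the groups, while Nox1, an epithelial NADPH oxidase, held 7.41, 8.11 and 7.06 FPKM against 6.88, 3.49 and 3.49 FPKM.

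Markers of other cell types were also measured. The 5 T cell genes Cd3e, Cd3d, Cd3g, Cd247 and Cd2 summed to 5.51, 3.25 and 3.46 FPKM in A10-FMT and to 8.62, 5.06 and 7.97 FPKM in A100-FMT, and the groups overlapped. All 9 tested genes of the wider list of intraepithelial and cytotoxic T cells were above 0, with 1 not overlapping, and they summed to 67.5, 56.4 and 54.0 FPKM against 123.0, 48.8 and 122.9 FPKM, A100-FMT replicate 2 being the lowest of the 6. Erythroid markers, mainly Hba-a1, an alpha globin, summed to 3.68, 1.09 and 2.06 FPKM against 9.77, 5.03 and 9.01 FPKM. Smooth muscle markers summed to 1.05 to 1.23 FPKM against 1.17 to 1.74 FPKM, with Actg2 at 0 in all 6 libraries, and 4 pancreatic acinar enzymes were at 0 in all 6. The epithelial marker Epcam held 961 to 1006 FPKM in A10-FMT and 963 to 989 FPKM in A100-FMT, and Lgals4, another epithelial gene, was higher without overlap, with 2130, 2010 and 2185 FPKM against 2312, 2323 and 2208 FPKM. The part of T cells and blood in the differences above was not tested.

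Further genes were among the largest differences of genes with a symbol and no overlap. Gdpd3, a lysophospholipase D, held 0.91, 0.65 and 0.39 FPKM in A10-FMT and 2.49, 4.20 and 6.03 FPKM in A100-FMT, with a log2 difference of 1.62. Pmp22, a peripheral myelin protein also present in epithelial junctions, held 7.93, 7.40 and 7.14 FPKM against 17.7, 13.8 and 17.7 FPKM, a difference of 1.03 (SE 0.27). Tmigd1, an adhesion molecule of the brush border, differed by 1.11 and Clca4a, of the chloride channel accessory family, by 1.11. Scpep1, a serine carboxypeptidase, differed by 1.28, but 1 A100-FMT library at 10.5 FPKM set this value, the other 2 being at 0.59 and 0.18 FPKM.

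Downward, Mrpl22, a mitochondrial ribosomal protein, held 7.20, 6.53 and 5.54 FPKM against 2.58, 1.83 and 1.37 FPKM, a difference of -1.36 (SE 0.26). Slc6a16, an orphan transporter, held 253, 383 and 372 FPKM against 206, 168 and 34.8 FPKM. Rps28, a ribosomal protein of the small subunit, had the largest downward difference of genes with a symbol and no overlap, -5.55 (SE 1.80). It held 466, 312 and 87.9 FPKM against 4.50, 6.49 and 2.08 FPKM, and ran from 18.2 to 508 FPKM within Con-FMT and from 1.37 to 399.6 FPKM within Sa. Ribosomal proteins have many processed copies, and whether these affect the Rps28 value was not tested, so it is uncertain. Rps28 lies near H2-DMb1, Psmb9 and H2-Ea on chromosome 17. Cacna1f, a calcium channel subunit, differed by -1.52 but held 0.05 FPKM in 1 A10-FMT library. Psmb9, a catalytic subunit of the immunoproteasome, held 75.2, 60.7 and 37.0 FPKM against 23.1, 16.9 and 31.0 FPKM.

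Proteins that the study measured by other means were looked up among the transcripts. Of 10 tested genes 3 were above 0 and 7 below, with a median of -0.06. Klf7, a Krüppel-like factor, was lower without overlap, with a difference of -0.25. Cdh1, E-cadherin of the adherens junctions, overlapped, with a difference of -0.11 (SE 0.05).

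The same contrast in set 1 shares no library with that in set 2. There 1363 genes were called higher and 403 lower in A100-FMT among 11356 tested. The difference between the sets was tested gene by gene (limma, the interaction over the 12 A10-FMT and A100-FMT libraries of both sets), and 927 genes passed (8.16%). Of these, 345 were more positive in set 2 (3.04%) and 582 more negative (5.13%). This split depended on scaling, being 446 to 208 after each library was shifted by a trimmed mean, and the median interaction over all genes moved from -0.07 to -0.002. Leaving out 1 of the 12 libraries gave 199 to 886 calls, and 8 of the 12 moved the count by more than 1.5 times. In set 2 it was 199 and 249 without A10-FMT replicates 2 and 3, and 386 and 227 without A100-FMT replicates 2 and 3. In set 1 it was 465 and 430 without A10-FMT replicates 2 and 3, and 299 and 213 without A100-FMT replicates 1 and 3. With the replicate number as a block within each set no interaction was called (0 genes by limma, smallest adjusted p 0.0505), although the numbers did not pair the samples.

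Absorption and P450 genes differed between the sets in sign. Fat uptake genes were lower in A100-FMT in set 1 for 25 of 28 members, with 13 called lower. Of all 11289 genes tested in both sets, 3677 were lower in set 1 and 398 were called lower. The difference was more positive in set 2 for 15 of 28 fat uptake genes, against 3.04% of all genes. Fabp2 had a difference of -0.61 in set 1 and 0.70 in set 2, an interaction of 1.31 (SE 0.16, adjusted p = 0.00974 from limma). The A10-FMT mean of Fabp2 in set 1 was 2650 FPKM (SD 296, n = 3) and the A100-FMT mean was 1740 FPKM (SD 201, n = 3), so levels in both groups were higher than in set 2. Slc6a19 had an interaction of 1.47, and Cyp3a11 of 2.34 (adjusted p = 0.0259 from limma). Proximal markers were more positive in set 2 for 11 of 18 members, brush border genes for 8 of 19 and P450 genes for 8 of 20.

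Paneth genes were below 0 in both sets for most members. In set 1 24 of 31 members were below 0 and 12 were called lower, with a median of -0.54. Of all 11289 genes tested in both sets, 398 were called lower in set 1. The lack of a call between the sets does not show that a gene behaved alike in both. Of 31 members 1 was called as differing between the sets, more positive in set 2, a share near the 3.04% of all genes. This member was Guca2b, with an interaction of 1.22 (SE 0.17, adjusted p = 0.0116 from limma). Ang4 differed by -1.48 in set 1 and by -1.34 in set 2, with an interaction of 0.15 (SE 0.44). More negative in set 2 were 6 of 27 stem cell and Notch genes and 9 of 50 proliferation genes, against 5.13% of all genes. In set 1 these crypt lists had 8 and 22 members called higher, respectively, against 1361 of 11289 genes tested in both sets. Over all genes the more negative calls fell from 582 to 208 after trimmed-mean scaling, which was not counted for these lists. Lrig1 had an interaction of -0.59 (SE 0.10).

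**Figure D5:**
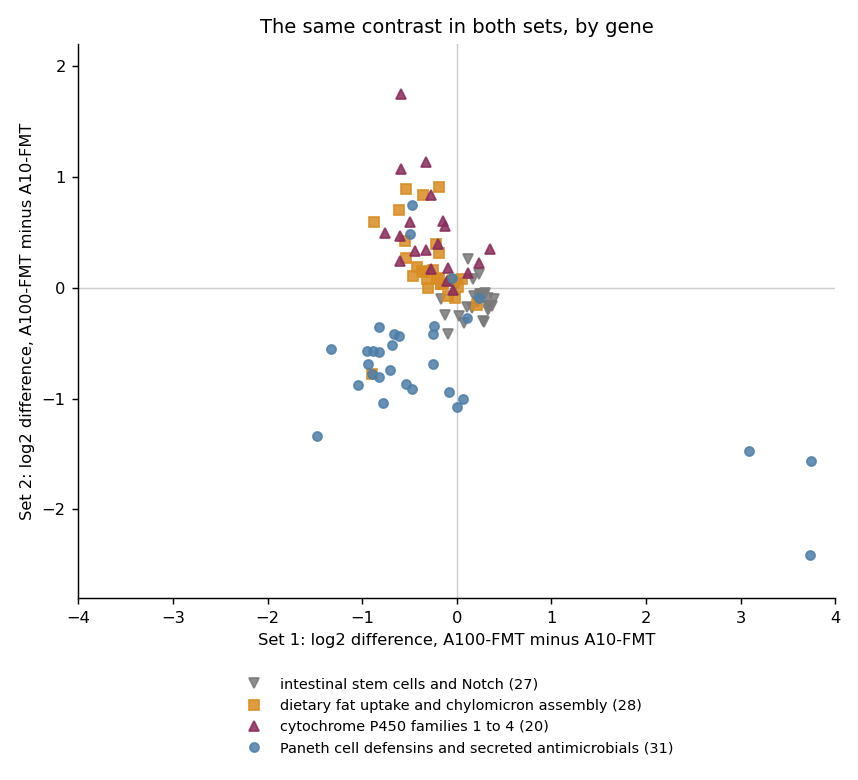
Log2 difference A100-FMT minus A10-FMT of each member of 4 gene lists in set 1 (horizontal) and in set 2 (vertical), which share no library; numbers in parentheses are members tested in both. Most Paneth genes lie below 0 on both axes, apart from 3 defensins that lie far to the right, while most P450 and fat uptake genes lie above 0 in set 2 and below 0 in set 1.

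Over the 6 libraries the summed FPKM ran from 569522 to 592278 in A10-FMT and from 570342 to 596296 in A100-FMT. Pearson correlation of log2 values ran from 0.98 to 0.989 between libraries of a group (6 pairs) and from 0.978 to 0.99 between groups (9 pairs), so the 2 ranges overlapped. No read counts accompany the values, so the depth behind each value is unknown.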

How the data were processed

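RNA-seq was performed by the authors on small intestine (TRIzol RNA, HiSeq 2500). The deposited table holds FPKM values for 19215 entries in 24 columns, rounded by the authors to 2 decimals. The submitters' processing notes name mm10, and the aligner and counting are not given in the sources used here. The methods describe RPKM and the tool DEGseq, which needs reads, so it was not repeated. Depth and counting error are unknown. Of 17842 entries with an NCBI gene identifier, 17725 were matched to a symbol through RefSeq, and 1373 are models of the sequencing provider.

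Groups follow the sample labels. The members and gene lists were chosen with earlier results of these data known, and the lists were written from general knowledge. Values were taken as log2(FPKM + 1). Genes whose mean in set 2 (12 libraries) reached 1 FPKM were fitted with limma 3.58.1 (R 4.3.3, eBayes with trend, 1 mean per group for the 4 groups, 8 residual degrees of freedom), Benjamini-Hochberg over all genes, threshold 0.05. The difference between sets was an interaction contrast over the 12 A10-FMT and A100-FMT libraries of both sets. The code was tested on simulated data. Lists were described without a set test. Genes named are the 10 largest and 10 smallest differences with a symbol, called or without overlap, the 3 most abundant members of each list, the proteins the study measured and the 3 largest interactions each way. Mmp7, Itln1, Habp2, Lyz1, Guca2b, Apoc3, Apob, Apoc2, Lgals4, Dgat2, Ggt1, Slc6a19, Slc13a2, Cyp2c66, Slc10a2, Lrig1, Hes1, Ciita, Nox1, Elovl6, further Defa genes and the genes whose promoters are shown were added after their values were seen. Some genes that these choices cover are not reported here. Alternatives were another pseudocount (0.1), other filters, quantile and trimmed-mean scaling, library weights, a correction for GC content and length (known for 92.86% of genes tested), a replicate block, other sets of libraries in the fit, and each library left out. Tables and plots were made with pandas 2.3.3, numpy 2.4.6 and matplotlib 3.10.9 in Python 3.11.15. In 1 saline sample of set 1 the title and the description point to different columns, and the title's was used; it enters only the fit of all 23 libraries.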

Additional observations from a re-analysis of the deposited data

Results flagged for a closer look

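By limma's interaction test at an adjusted p below 0.05, the difference A100-FMT minus A10-FMT was more positive in set 2 than in set 1 for 345 genes and more negative for 582. With the replicate number as a block within each set none was called, the smallest adjusted p from limma being 0.0505. The named genes that passed without the block are given here by their interaction on the log2 scale, set 2 minus set 1.

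Among absorption genes the interaction was 1.31 for Fabp2, 1.43 for Apoa4, 1.19 for Apoa1, 1.10 for Apoc3, 0.98 for Fabp1, 0.61 for Dgat2 and 0.92 for Rbp2. Brush border and transport genes had 0.57 for Anpep, 0.97 for Ggt1, 1.47 for Slc6a19 and 1.46 for Slc13a2. Drug metabolism genes had 2.34 for Cyp3a11, 1.46 for Cyp2b10, 1.66 for Cyp1a1, 1.11 for Cyp2c66, 0.67 for Cyp4f14 and 0.85 for Ces2c.

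Of the remaining genes more positive in set 2, S100g, the calcium carrier calbindin-D9k, had 2.41 and Akp3, an intestinal alkaline phosphatase, had 2.35. S100g held 262 FPKM (SD 84.7) in A10-FMT and 74.0 FPKM (SD 27.4) in A100-FMT in set 1 (n = 3 each), whereas its set 2 libraries overlapped. BGI_novel_G001431 had 2.36, Guca2b 1.22, Pmp22 1.63, Clca4a 1.58 and Tmigd1 1.42.

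Genes more negative in set 2 were Ceacam10, of the carcinoembryonic antigen family, with -1.26, the predicted gene Gm40378 with -1.06, Npff, a neuropeptide precursor, with -0.93, Lrig1 with -0.59 and Cdh1 with -0.31. Of these 29 named entries 12 kept their call without each of the 12 libraries in turn, which were BGI_novel_G001431, Guca2b, Apoa4, Fabp2, Dgat2, Ggt1, Slc6a19, Slc13a2, Ces2c, Lrig1, Pmp22 and S100g. The other 17 lost it without at least 1, and without A10-FMT replicate 2 of set 2 only 12 of the 29 were called. The labels do not explain the set codes, and anything else that differed between the sets cannot be told apart from this difference in response.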

How the results depend on the processing

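Beside 1 gene up and 1 down, calls numbered 2 up and 3 down with no filter, 3 up with the replicate block, 0 up after the GC and length correction and 0 up with all 23 libraries, and 0 down with a mean of at least 5 FPKM or with the 6 libraries alone, and 2 down with all 23 libraries and the description's column, where none was called up. The GC and length correction left out the entry called up, whose GC content is unknown, and the filter of 5 FPKM left out Pla2g2f. In these settings the counts of 0 come from absence in the fit, not from a lost call. Without 1 library, 0 to 2 genes were called up and 0 to 1 down. Pla2g2f was called in 8 of 16 alternatives (adjusted p from limma 0.00542 to 0.173) and BGI_novel_G001431 in 10 of 16 (0.00542 to 0.137), and Slc13a2 was called only under the block. The 74 genes 1.5-fold higher became 120 with a pseudocount of 0.1, 46 with at least 5 FPKM and 16 at a ratio of 2, and 79 to 141 without 1 library, where fewer libraries can overlap (over 1.5 times 74 without A10-FMT replicates 1 or 3 or A100-FMT replicates 1 or 2). The 36 lower became 23, 17 at a ratio of 2, and 41 to 73. The 927 differences between sets became 394 with no filter, 448 after quantile normalization, 396 with all 23 libraries and 0 under the replicate block (smallest adjusted p 0.0505, with 935 and 1885 genes at an unadjusted p below 0.05), and 199 to 886 without 1 library; 519 and 198 genes were more positive and more negative after the GC and length correction, and 251 and 197 after quantile normalization. The replicate numbers did not pair the samples, same-number correlations of the compared groups being -0.282, 0.053 and 0.118 in set 2 and 0.044, 0.016 and -0.106 in set 1, with 6 of 18 over 0.1 among all pairs of the 4 groups of set 2. Medians of the lists kept their sign in each of 126 alternatives for 14 lists except proliferation, and 4 moved by more than 1 SD between replicates, all without 1 library, where brush border ranged from 0.14 to 0.257 and glutathione from 0.058 to 0.106 (both lowest without A10-FMT replicate 2), stem cell and Notch from -0.183 (without A100-FMT replicate 1) to -0.074, and MHC class II from -0.417 to -0.062 (without A10-FMT replicates 1 and 2; also over 1.5 times without A100-FMT replicates 1 and 3). Interferon GTPases had -0.171 with a pseudocount of 0.1 and -0.185 without A100-FMT replicate 3. Of 938 alternative values of 67 named genes 914 were labelled the same. For a gene without a call this means a shift below 1 SD between its own replicates, which is a wide margin for variable genes. For the called genes it means that the call was kept, and 14 values lost it. No called value changed sign. Among the 67, Reg3g, Reg3b and Gm40378, none of them called, changed sign under 1 or more settings. The 67 leave out some genes named above, among them Defa2, Defa20, Defa21, Defa22, Defa23 and Defa34, which change sign without A10-FMT replicate 1. The causes were not tested. The 3 libraries per group and the unknown depth limit precision.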

Other observations

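Other lists are given by position, beside 9.51% of all genes higher and 7.18% lower without overlap. Of 28 claudin and tight junction genes 5 were lower in A100-FMT without overlap (17.9%) and none was higher, though the median was -0.02. Of 28 heat shock and unfolded protein response genes 24 were above 0 and 5 were higher without overlap (17.9%), with a median of 0.09. Of 51 cytosolic ribosomal proteins 42 were above 0, with 8 higher and 1 lower without overlap (15.7% and 2.0%). Goblet cell genes were even, with 12 of 24 above 0, and neither of the p53 target and circadian clock lists had a member without overlap.

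Within groups some neighbouring genes moved together. H2-T22, a non-classical MHC class I gene, held 2.37, 1.51 and 15.8 FPKM in A10-FMT and 27.2, 2.05 and 43.2 FPKM in A100-FMT. H2-T3 and H2-Bl were low in the same 3 libraries, A10-FMT replicates 1 and 2 and A100-FMT replicate 2. Rps28, H2-DMb1, Psmb9 and H2-Ea, 4 of the 9 genes with a symbol and the largest downward differences without a call, lie within 0.522 Mb of chromosome 17 (from 33823036 to 34344645 on mm10). In this window, chosen after the values were seen, 5 of 24 tested genes were lower without overlap (20.8%) and 2 higher (8.33%), against 6.39% and 9.40% of 532 other tested genes on the chromosome. Of the 5 lower genes 4 are those that set the window, so it adds 1.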
